A study of Drosophila melanogaster with 2 samples.

Results

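The genes described here encode the proteins of the small (40S) subunit of the cytoplasmic ribosome in *Drosophila melanogaster*. They were taken as the protein-coding genes of the Ensembl BDGP6 annotation whose symbol begins with RpS and a number, or is sta, sop or oho23B. This gave 39 genes of the 13945 protein-coding genes on arms 2L, 2R, 3L, 3R, 4 and X. Of these symbols sta was present, while sop and oho23B appear in the annotation as RpS2 and RpS21.

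The data are peak lists from chromatin immunoprecipitation with sequencing (ChIP-seq) of whole adult males. All flies came from 1 transgenic line that stably expresses CG12768, a member of the MADF-BESS family, fused at its C-terminal end to GFP, which served as the tag for immunoprecipitation. There was 1 group of 2 biological replicates, of unknown age, and no second group, so no difference between conditions was tested. No mock immunoprecipitation was analysed here. The promoter that drives the transgene is not given in the sources used here. Because whole flies mix all tissues, weak binding in many cells and strong binding in few cells cannot be told apart.

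The 40S subunit reads the messenger RNA: its head and body close around the mRNA channel, the decoding centre matches codons with tRNAs, and its platform holds the mRNA exit. Ribosomal protein genes are transcribed at high levels in every growing cell, and their products are needed in equal amounts. In *Drosophila*, heterozygous loss of many of these genes gives the Minute phenotype of slow development and thin bristles. Their promoters often start within a run of pyrimidines, the polypyrimidine (TCT) initiator, which takes the place of the usual initiator.

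Sequence at the starts is shown first for the members on which the results turn. Each line gives the gene strand of the dm6 assembly (RefSeq), 5′ to 3′, from 70 bases before to 20 bases after the first annotated start. Capitals mark CTTT beginning within 5 bases of the start, the DNA replication-related element (DRE, TATCGATA) and the palindrome CAGCTG, wherever a search found them. RpS4 and RpS20, of higher signal than RpS27A, held none of these marks in the same window and are not printed. The first lines are bound genes of high signal, shown for the place of the summit and the motifs near it: RpS27 on the minus strand (chr3R:25247495-25247584), RpS25 on the minus strand (chr3R:11216268-11216357) and RpS27A on the plus strand (chr2L:10408282-10408371).
RpS27: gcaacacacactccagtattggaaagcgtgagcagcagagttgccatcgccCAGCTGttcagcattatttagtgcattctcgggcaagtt
RpS25: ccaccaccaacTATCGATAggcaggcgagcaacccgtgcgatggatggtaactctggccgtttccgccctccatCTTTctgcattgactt
RpS27A: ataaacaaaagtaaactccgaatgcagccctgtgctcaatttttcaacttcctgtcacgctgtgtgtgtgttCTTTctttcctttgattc

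Next come paralogs, each bound copy above an unbound one, because the copies of a protein differed in binding. They are RpS5a (chrX:17148245-17148334, minus) and RpS5b (chr3R:14901544-14901633, minus), RpS14b (chrX:7934828-7934917, plus) and RpS14a (chrX:7933672-7933761, plus), RpS19a (chrX:16637824-16637913, plus) and RpS19b (chr3R:23933511-23933600, minus), and RpS28b (chrX:9554553-9554642, plus) and RpS28a (chr3R:30022629-30022718, minus).
RpS5a: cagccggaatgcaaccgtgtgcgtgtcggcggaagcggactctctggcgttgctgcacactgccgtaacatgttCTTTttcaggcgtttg
RpS5b: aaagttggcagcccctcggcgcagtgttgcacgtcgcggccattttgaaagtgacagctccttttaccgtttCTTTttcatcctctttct
RpS14b: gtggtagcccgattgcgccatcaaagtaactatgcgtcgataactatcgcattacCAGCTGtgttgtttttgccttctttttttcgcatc
RpS14a: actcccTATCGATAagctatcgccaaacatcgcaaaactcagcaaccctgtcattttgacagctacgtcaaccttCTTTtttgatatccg
RpS19a: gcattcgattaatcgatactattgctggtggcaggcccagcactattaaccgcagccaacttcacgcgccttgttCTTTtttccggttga
RpS19b: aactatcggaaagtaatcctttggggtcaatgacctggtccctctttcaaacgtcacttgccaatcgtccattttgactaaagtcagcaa
RpS28b: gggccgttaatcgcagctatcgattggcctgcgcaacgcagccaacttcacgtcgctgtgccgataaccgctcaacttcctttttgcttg
RpS28a: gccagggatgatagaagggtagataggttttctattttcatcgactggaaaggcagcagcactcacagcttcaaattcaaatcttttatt

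The reproducible (IDR-thresholded) dm6 peaks of the authors number 6066 and form the thresholded list used here. A gene was counted as bound where the summit of 1 of these peaks lay within 500 bp of any of its transcript starts. Peak signal is the value given by the authors' peak caller, in units whose scaling is not stated, and it is used only within a list. The 6066 peaks are exactly the pooled peaks of highest signal, from 4110.4 down to 141. Depth is unknown, since no list gives reads.

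Most small-subunit genes were bound: 27 of 39 (69.2%), against 25.9% of all protein-coding genes. The other cytoplasmic ribosomal list was close to this, with 42 of 54 large-subunit genes bound (77.8%), led by RpL7 (signal 796), RpL34b (771) and RpL14 (769). Mitochondrial small-subunit genes had 12 of 26 bound (46.2%), led by mRpS10 (signal 1954), mRpS23 (1700.4) and mRpS2 (795), proteins of the mitochondrial ribosome. Genes that assemble or attach to the 40S subunit had 6 of 17 bound (35.3%), led by Rack1 (640.0), itself a protein of the 40S head, then nop5 (354) and l(3)72Dn (344). These are counts without a test of the differences between lists.

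The bound members named here, in falling order of signal, were RpS27, RpS25, RpS4, RpS20, RpS16, RpS23, RpS27A, RpS18, RpS10b, RpS5a, RpS19a, RpS3A, RpS21, RpS28b, RpS3, RpS12, RpS29, RpS7, RpS14b, RpS9, RpS15Aa, RpS15, RpS2 and RpS6. Over all 27 bound members the signal had a median of 329, quartiles of 245 and 372, and its highest value, 1083, at RpS27. Over all 3613 bound protein-coding genes the median was 259, the quartiles 186 and 396, and the highest value 4033. The members' upper quartile was thus below that of all bound genes. The members' median rank was 1554 of 6066, against 2410 over all bound genes. Of the 27, RpS27, RpS25 and RpS4 were among the 500 strongest peaks, a range that held 12.8% of all bound genes. The 1000 strongest held 5 of the 27 and 23.4% of all bound genes. The 2000 strongest held 17 of the 27 and 43.2% of all bound genes.

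**Figure D1:**
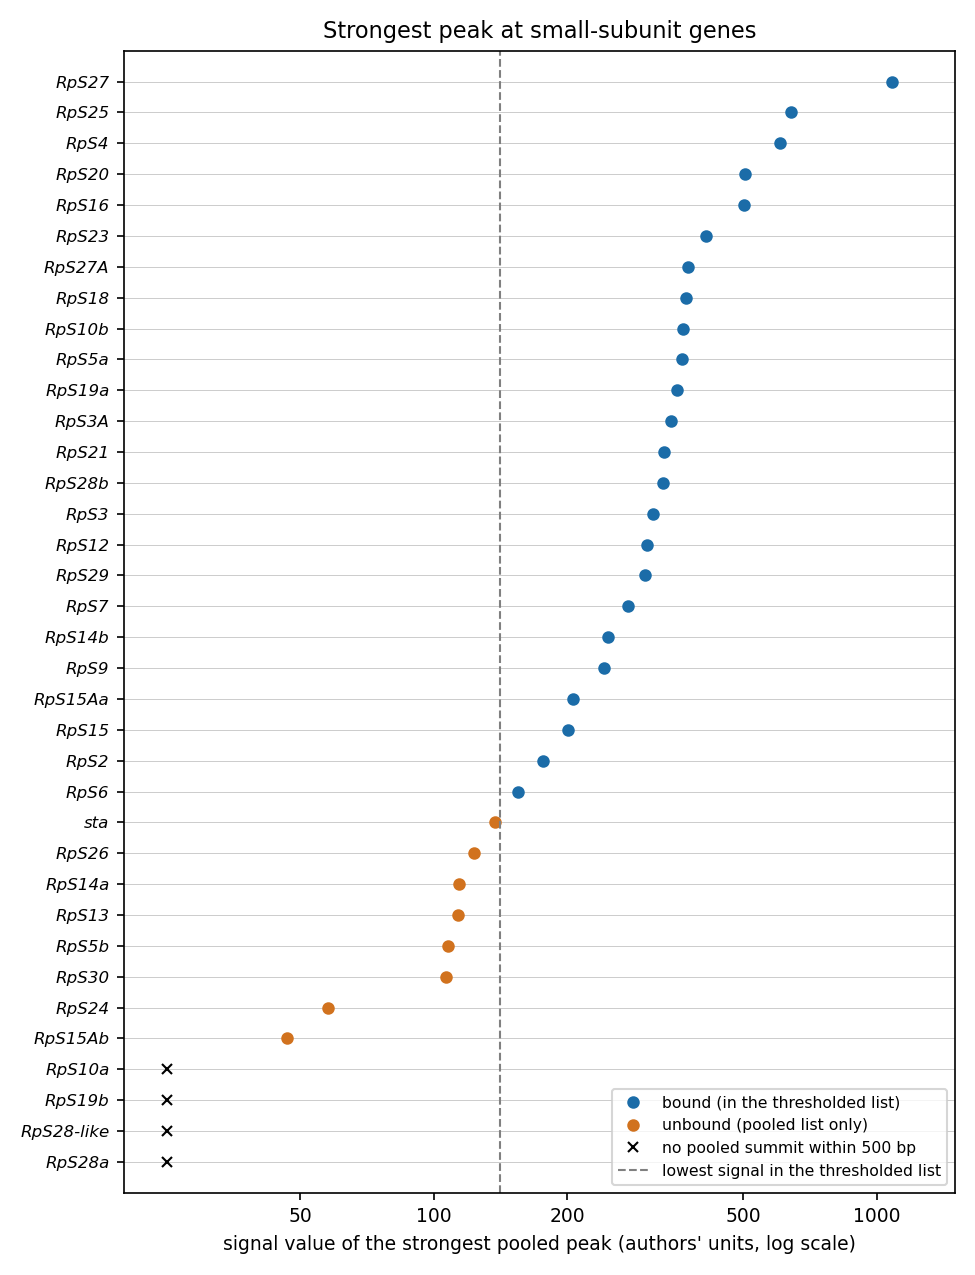
Signal of the strongest pooled peak within 500 bp of a start (log scale, authors' units) for 36 of the 39 genes, in falling order. Blue points are bound genes, orange points are unbound genes whose peak is in the pooled list only, crosses are genes with no pooled summit there, and the dashed line is the lowest signal in the thresholded list (141). RpS27 stands apart at 1083, and sta (137) lies just below the line.

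The strongest peaks in full begin with RpS27, a zinc-binding protein of the 40S platform. Its peak (chr3R:25247363-25247766) had signal 1083 in the thresholded list, 533 in replicate 1 and 576 in replicate 2, with ranks of 122, 122 and 138. Both replicates placed it among their strongest peaks. The summit lay at -18 bp from the start (negative is upstream), in the window printed above and within the CAGCTG that begins at -19. Neither replicate alone had its summit in the CAGCTG: it was at 11 bp in replicate 1 and -38 bp in replicate 2.

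RpS25, a head protein near the tRNA exit site, had signal 639 in the thresholded list (chr3R:11216227-11216440), 318 in replicate 1 and 329 in replicate 2, and ranked 430, 443 and 457. Its summit was at -43 bp, between the DRE, which begins at -59, and the start. In replicate 1 the summit was at -40 bp, and in replicate 2 at -66 bp, upstream of the DRE. RpS4, a body protein, had signal 605 (chr3L:13041660-13041926), 368 and 246, and ranked 480, 301 and 808. RpS25 thus held nearly the same place in both replicates, while RpS4 stood higher in replicate 1.

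RpS20, a head protein that lies beside RpS3, had signal 504 (chr3R:20821931-20822157), 175 in replicate 1 and 319 in replicate 2, with ranks of 691, 1620 and 486. It had the most distant summit of the 27 bound members, at -144 bp. RpS16, whose tail reaches the tRNA in the peptidyl site, had signal 501 (chr2R:22605937-22606199), 270 and 246, and ranked 694, 664 and 817.

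RpS23, a protein of the decoding centre, had signal 411 (chr2R:14216506-14216713), 275 in replicate 1 and 158 in replicate 2, and ranked 1020, 644 and 1754. RpS27A is made as a fusion with ubiquitin. Its peak had signal 374 (chr2L:10408221-10408360), 171 and 208, ranked 1225, 1708 and 1122, and had its summit at -40 bp. These genes stood in opposite order in the replicates, with RpS23 higher in replicate 1 and RpS27A higher in replicate 2.

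RpS18, a head protein at a bridge to the large subunit, had signal 371 (chr2R:20263764-20264207), 236 and 159, and ranked 1254, 866 and 1734. RpS10b, a head protein at the mRNA entry, had signal 365 (chrX:19597926-19598131), 212 and 166, and ranked 1294, 1073 and 1629. RpS5a, a head protein at the mRNA exit, had signal 363 (chrX:17148239-17148366), 181 and 181.5, and ranked 1306, 1510 and 1410. These genes were close to each other in the thresholded list and lay between ranks 866 and 1734 in the replicates.

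Grouped by place in the subunit, a grouping made from general knowledge after the values were seen, each of the 14 head proteins had a bound gene. The 14 bound head genes had a median signal of 359 and a highest value of 639 at RpS25. Of the 18 proteins of the body and platform, 13 had a bound gene, with a median signal of 269.5 and a range from 155 at RpS6, the target of S6 kinase, to 1083 at RpS27. The 5 body and platform proteins with no bound gene were RpS13, RpS24, RpS26, RpS30 and sta. No test was made on this division, and the head had more duplicated genes (19 genes for 14 proteins, against 20 for 18). Counted by gene, 14 of 19 head genes and 13 of 20 body and platform genes were bound, against 25.9% of all protein-coding genes. The contrast by protein was thus much smaller by gene.

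Members just inside and just outside the threshold were few. RpS6 (signal 155, rank 5276) was among the weakest bound members. The first unbound member was sta, which encodes the 40S protein related to the human laminin receptor, with a pooled signal of 137 at rank 6298. The second was RpS26, a protein of the mRNA exit, with 123 at rank 7332.

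In all, 12 members were unbound, and 8 of them still had a summit within 500 bp in the pooled list of 30000 peaks, which holds background by design. In that list 35 of 39 members had a summit, against 55.8% of all protein-coding genes. Beside sta and RpS26, pooled signals were 114 at RpS14a, 113 at RpS13, 108 at RpS5b and 106 at RpS30, with ranks from 8114 to 8866. RpS24 (57.8, rank 19134) and RpS15Ab (46.5, rank 25287) were far weaker. RpS10a, RpS19b and RpS28-like had no summit in any list, and RpS28a had 1 in replicate 1 alone (signal 31.6, rank 20293).

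Among unbound genes with no paralog, the replicates ranked sta 7738 in replicate 1 and 4920 in replicate 2, and RpS26 7201 and 4137. RpS13 ranked 6299 and 14727, RpS30, which is made as a fusion with a ubiquitin-like protein, 11106 and 8324, and RpS24 14228 and 26903. So sta and RpS26 came within the leading 6066 peaks of replicate 2 only, and RpS13, RpS30 and RpS24 in neither.

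Copies of the same protein differed in binding. The 6 proteins with more than 1 gene have 13 genes, and each had exactly 1 bound copy (6 bound and 7 unbound genes). Bound were RpS5a, RpS10b, RpS14b, RpS15Aa, RpS19a and RpS28b. Unbound were RpS5b, RpS10a, RpS14a, RpS15Ab, RpS19b, RpS28a and RpS28-like. Of the 26 genes with no paralog, 21 were bound. By the same rule 25.9% of all protein-coding genes were bound. Paralog groups of other genes were not counted, so whether this split is particular to these genes is not known. RpS5b and RpS19b are known for expression mainly in the germline, whereas RpS14a and RpS14b encode the same protein.

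**Figure D2:**
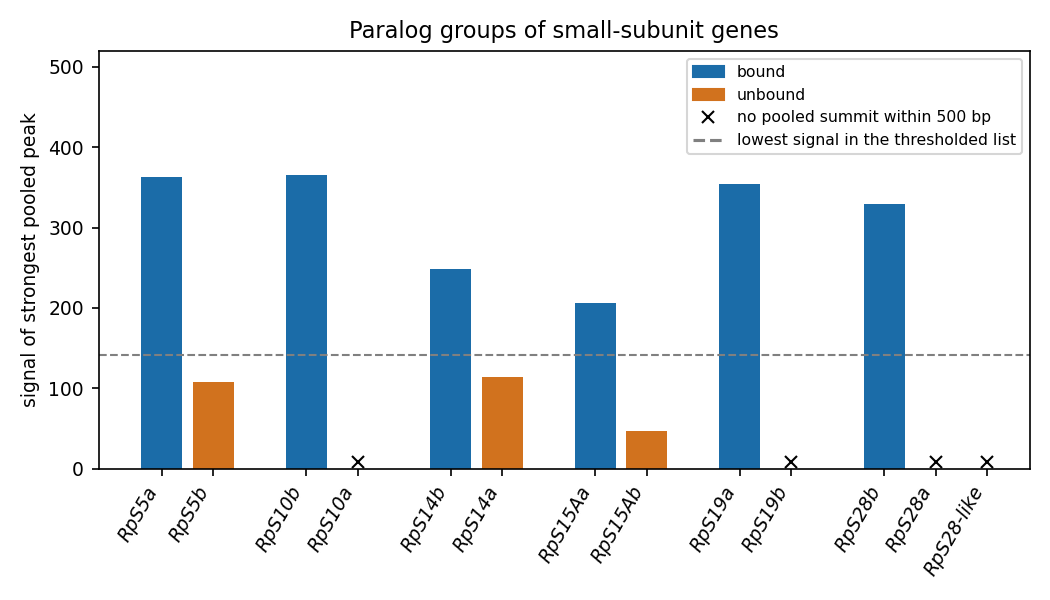
Signal of the strongest pooled peak within 500 bp of a start (bars from 0, authors' units) for the paralog groups, with the bound copy on the left of each group. Crosses are genes with no pooled summit there and the dashed line is the lowest signal in the thresholded list (141); each group has 1 bar above it.

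RpS5a (363) and RpS5b (108) both had a pooled summit just upstream, at -33 and -17 bp, and the printed starts of both hold CTTT. RpS5b ranked 17625 in replicate 1 and 6790 in replicate 2, against 1510 and 1410 for RpS5a. Their coding sequences were 81.4% identical over aligned bases.

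RpS14b and RpS14a are tandem genes on X with 220 bases between them. RpS14b had signal 248 in the thresholded list (chrX:7934638-7935081), 132 in replicate 1 and 116 in replicate 2, with ranks of 2576, 2786 and 2773, and its summit was at -38 bp. RpS14a had 114 in the pooled list, 50.5 and 78.3, and ranked 8114, 11193 and 4905, so replicate 2 alone placed it among its leading 6066. Their coding sequences were 97.8% identical, but the 250 bases on each side of the starts shared no run longer than 11 bases.

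RpS15Aa (X) and RpS15Ab (2R) were 98.2% identical in coding sequence, and shared a run of 25 bases near their starts. RpS15Aa had signal 206 in the thresholded list (chrX:13337382-13337825), 157 in replicate 1 and 85.5 in replicate 2, with ranks of 3434, 2019 and 4340, and its summit was at 34 bp. RpS15Ab had 46.5 in the pooled list, 346 bp downstream of its start, and no summit in either replicate's list. How reads that fit more than 1 place were treated before peak calling was not stated in these sources, and its part in these values was not tested.

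The remaining groups were less alike in sequence. RpS10b and RpS10a were 76.4% identical in coding sequence and RpS19a and RpS19b 67.9%. RpS28b was 78.1% identical to RpS28a and 69.5% to RpS28-like. RpS19a, a head protein whose human counterpart is mutated in Diamond-Blackfan anaemia, had signal 354 in the thresholded list (chrX:16637792-16637943), 209 in replicate 1 and 149.9 in replicate 2, with ranks of 1375, 1107 and 1875 and its summit at -30 bp. RpS28b, a protein of the mRNA exit, had 329 (chrX:9554476-9554709), 194 and 149, ranked 1554, 1287 and 1891, and had its summit at 5 bp. Their unbound copies had no pooled summit.

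Summits at the bound members lay close to the start. In the thresholded list all 27 were within 150 bp, against 57.3% of all bound genes, and 20 (74.1%) were within 50 bp, against 22.3%. The median position was -5 bp (quartiles -38.5 and 14.5 bp), against -96 bp over all bound genes (-195 and 5 bp), and the extremes were RpS20 at -144 bp and RpS3, a protein of the mRNA entry, at 106 bp. In these figures a summit near the starts of several genes counts for each of them. When it counted only for the gene whose start was closest, 2859 protein-coding genes were bound. Of these 28.7% had a summit within 50 bp, and their median position was -52 bp. The members kept 20 within 50 bp and a median of -5 bp, so the contrast was smaller but remained. In the main count, upstream and downstream summits of the members were about even, with 14 upstream and 13 downstream. Of all bound genes 73.8% had theirs upstream. The bound large-subunit genes also lay close, with a median of -27 bp and 64.3% within 50 bp, while mitochondrial small-subunit genes had a median of -177.5 bp and 8.33% within 50 bp.

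**Figure D3:**
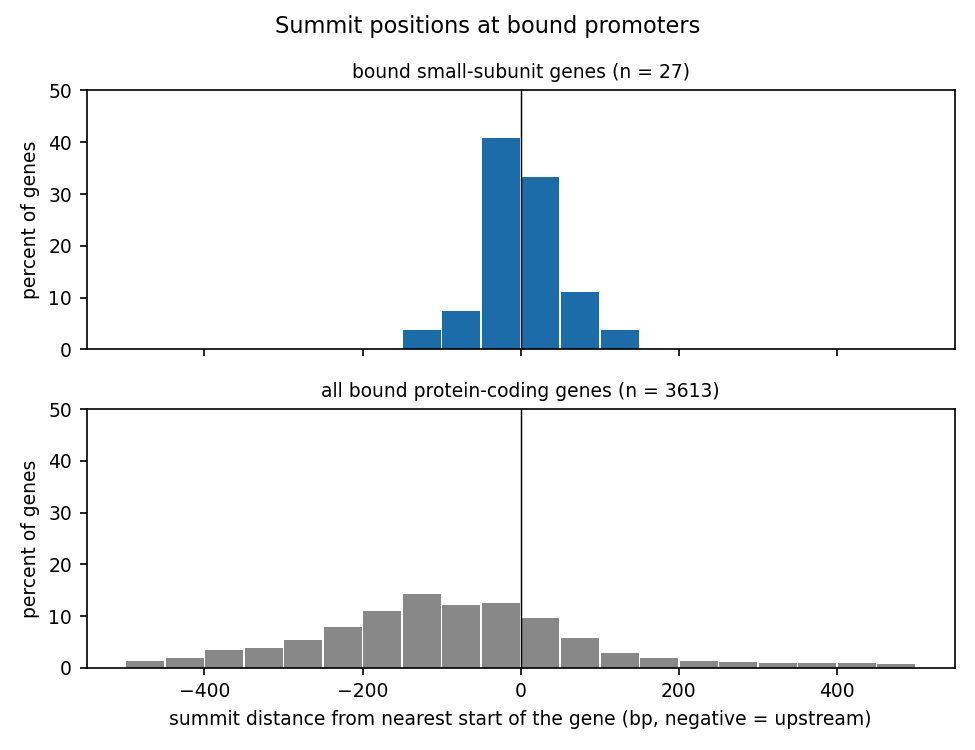
Distance of the strongest summit from the nearest start of the gene in bins of 50 bp (negative is upstream), as percent of genes. The 27 bound small-subunit genes (top) lie within 150 bp, while the 3613 bound protein-coding genes (bottom) spread up to 500 bp with most upstream.

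These distances are from the nearest of a gene's annotated starts, and 20 of the 39 members have more than 1. From the first start alone, 15 of 27 summits were within 50 bp, against 19.6% of all bound genes, and the median position was 7 bp. The summit of RpS16 was then at 343 bp, in place of -39 bp. By the annotation of the gene itself, 15 summits fell in an untranslated exon part, 10 upstream of the gene and 2 in an intron (RpS3 and RpS9).

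No other protein-coding start was nearer to any of the 27 summits than the member's own, though at RpS27A another was equally near. At 17 members no other protein-coding gene started within 500 bp of the summit. The other 10 of 27 had a neighbour there, against 49.5% of all bound genes. The neighbour ran in the opposite direction at 9 of them, as with Nup37 at RpS27 (summit at -126 bp from the Nup37 start) and CG4820 at RpS25 (-205 bp). At RpS27A it was Ip259, on the same strand and with the same start.

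Replicates were compared through each one's own list, by rank of signal. Among the leading 6066 peaks, replicate 1 had 27 of 39 members (22.9% of all protein-coding genes) and replicate 2 also had 27 (27.9% of all). Of the members 24 were in both (18.4% of all genes). Replicate 1's 27 were the same genes as in the thresholded list. Replicate 2 lacked 3 of these, RpS6 and RpS15 among them, and had RpS14a, RpS26 and sta in their place.

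**Figure D4:**
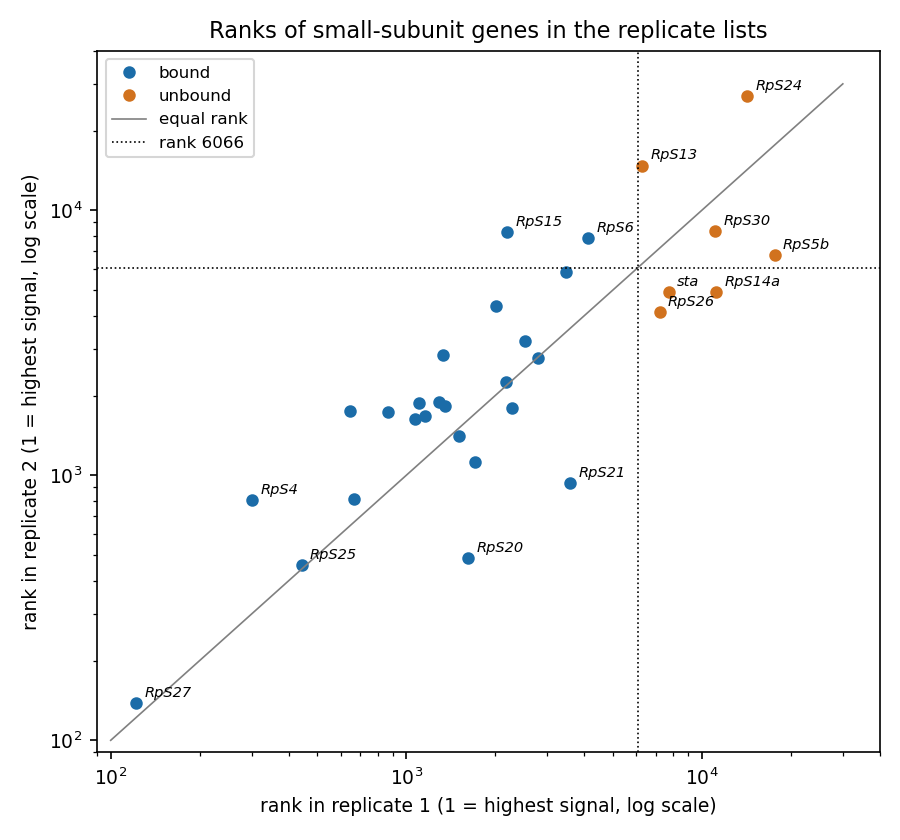
Rank of the strongest peak within 500 bp of a start in replicate 1 (x) and replicate 2 (y), log scales, for 31 of the 34 genes with a summit in both lists. Blue points are bound genes and orange points unbound ones, the line marks equal rank and the dotted lines rank 6066; RpS27 is at the lower left, and RpS15 and RpS6 lie above the horizontal dotted line.

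The median rank of the 27 bound members was 1620 in replicate 1 and 1788 in replicate 2. Over the 3539 bound genes with a summit in both lists these medians were 2916 and 2051. Of the members 19 stood higher in replicate 1 and 8 in replicate 2, while 37.5% of all those bound genes stood higher in replicate 1. Ranks of the 27 had a Spearman's rho of 0.59 across genes, against 0.42 across the 3539, as a description: all points share the same 2 libraries, and genes are not independent replicates.

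Ranks differed by 2 times or more between the replicates at 10 of the 27. The same share was not counted over all bound genes, so this count cannot be set against it. RpS15, a head protein whose tail reaches the decoding centre, ranked 2200 in replicate 1 and 8292 in replicate 2. RpS21 and RpS20 differed the other way, with ranks of 3591 and 1620 in replicate 1 and 935 and 486 in replicate 2. Summit offsets of the replicates differed by a median of 28 bp and by at most 50 bp at 20 of 27 members. The widest difference, 174 bp, was at RpS2. Each offset is from the start nearest to that summit, so at members with more than 1 start the difference may not be the distance between summits. It was not computed over all bound genes.

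By chromosome, bound members were 3 of 6 on 2L (24.9% of all protein-coding genes there), 5 of 7 on 2R (27.7%), 4 of 4 on 3L (28.5%), 7 of 12 on 3R (28.4%) and 7 of 9 on X (17.8%), and the 1 on chromosome 4 (23.8%). No difference between arms was tested. The member on chromosome 4 is RpS3A, which contacts the mRNA exit, with signal 343 in the thresholded list (chr4:67148-67311), 204 in replicate 1 and 163 in replicate 2, and its summit was 7 bp downstream of the start. Its gene lies on a chromosome rich in heterochromatin.

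Short motifs were counted on either strand in the 250 bases before to 50 bases after the first start. The DRE (TATCGATA) was in 13 of 39 members (33.3%) and in 15 of 54 large-subunit genes (27.8%), against 9.36% of all protein-coding genes. It was in 8 of 27 bound members and 5 of 12 unbound ones, so its share was not larger in bound members. ATCGAT, which lies within the DRE, was in 11 of 27 bound and 6 of 12 unbound members, against 23.3% of all genes. Large-subunit genes had it in 21 of 54.

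CTTT on the gene strand within 5 bases of the start was found in 10 of 27 bound members and 3 of 12 unbound ones, against 5.64% of all genes. In the large-subunit list it was in 18 of 54. CTTT beginning exactly at the annotated start was in 0 of 39 members and 0 of 54 large-subunit genes, against 0.50% of all genes. GAGAG was found in 4 of 27 bound and 0 of 12 unbound members, against 29.7% of all genes. GGTCACAC, the core of motif 1, was in 5 of 27 bound members and 1 of 12 unbound ones, against 7.70% of all genes. Large-subunit genes had it in 9 of 54.

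CAGCTG was in 5 of 27 bound members, RpS4, RpS6, RpS14b, RpS21 and RpS27, and in 1 unbound member, RpS28-like, against 17.7% of all genes. TATAAA was in 17 of 27 bound and 4 of 12 unbound members, against 45.8% of all genes. GCNGCNGCN was in 0 of 27 bound and 2 of 12 unbound members, against 9.24% of all genes. In the 200 bases centred on the summit, the DRE was at 6 of 27 bound members, against 6.09% of all bound genes, and TATAAA at 4 of 27, against 31.3%.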

How the data were processed

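ChIP-seq peak lists of 2 biological replicates of 1 group were used on the dm6 build. Per the notes deposited beside the files, the authors called peaks on each replicate and on both pooled, against a control, and made the thresholded list from these by irreproducible discovery rate (IDR). DNA was sonicated to 200-800 bp, per the labels. Aligner, peak caller and versions: not given in the sources used here. Each deposited peak has a signal value, of unstated scaling, a −log10 q-value, by the authors, and a summit offset. Lists on dm3 were not used.

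Summits were set against starts of protein-coding transcripts (Ensembl release 115), whose arms hold every dm6 peak end. The strongest summit within 500 bp gave a gene's value. Paralogs were aligned with Biopython 1.88 (global, match 1, mismatch -1, gap opening -3, extension -0.5). Peak assignment was tested on simulated data. Python 3.11.15 and pandas 2.3.3 were used. Counts, medians and shares cover all 39 members, of which 3 are not reported here by name or drawn singly. Full values go to the 10 of highest signal, the paralogs and the unbound genes. Members, lists and motifs were chosen with earlier results of these data known. Of 24 assembly genes 17 matched a symbol or synonym.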

Additional observations from a re-analysis of the deposited data

How the results depend on the processing

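The count of bound members stayed between 21 and 29 of 39 under every alternative run: other promoter distances, the stronger 3033 peaks, the highest −log10 q-value, nearest or first starts, peak intervals and each replicate alone. The share of all protein-coding genes bound moved too, and was 15.4% in the stronger 3033 peaks and 29.7% at 1000 bp, where the members' counts were lowest and highest. The stronger 3033 peaks held 21 members, without RpS2, RpS6, RpS15 and RpS15Aa among others. At 1000 bp RpS19b and RpS28a gained a summit, so 4 of 6 paralog groups had exactly 1 bound copy, and each other setting run gave 5 or 6 (this count was chosen after seeing the data). The median signal was 312 at 1000 bp and 354 in the stronger 3033 peaks. It was 156 without replicate 1 and 175 without replicate 2, whose lists have scales of their own. The median summit position was not stable in sign: it was -34 bp without replicate 1, 7 bp without replicate 2 and 7 bp from first starts, and the cause was not tested. The 20 members with a summit within 50 bp became 15 to 20, out of differing numbers of bound members. Their share ran from 55.6% from first starts (19.6% of all bound genes) to 81.0% in the stronger 3033 peaks (19.7%). At 1000 bp it was 62.1% of 29 (17.9%). Members in both replicates' leading peaks were 18 at 3033 peaks a list and 34 over whole lists. The share of all protein-coding genes was not counted at these settings, so these counts cannot be set against it. GGTCACAC and TATAAA were at 3 and 4 bound members in summit windows, against 5 and 17 in start windows. Unknown depth limits all of these: an unbound gene may be one with a peak too weak for the list. No paired analysis was possible because there is 1 group.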

Other observations

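Small nucleolar RNAs, which guide the modification of ribosomal RNA, lie in introns of many ribosomal protein genes. Of the 39 members 13 held at least 1 annotated snoRNA on their own strand, and 12 of these 13 were bound, against 57 of all 84 protein-coding genes with one (67.9%). Of the 26 members without one 15 were bound, against 25.7% of all protein-coding genes without one. The unbound member with a snoRNA was sta, with 2. RpS5a held 14, RpS7 held 7 and RpS16 held 5. No test was made.

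At 3 members a second thresholded summit lay within 500 bp of a start. At RpS27 it was at -217 bp (signal 233, rank 2828). That summit is nearer to the start of the opposite-strand gene Nup37, at 73 bp from it. The others were at RpS5a at -240 bp (170.2, rank 4599) and at RpS19a at -70 bp (149, rank 5597). No member had a further thresholded summit elsewhere in its gene.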
